A study of Homo sapiens with 9 samples.

Results

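The genes described here encode the machinery that brings proteins into mitochondria: the TOM complex of the outer membrane, the TIM complexes of the inner membrane, and the chaperones, motor subunits, redox enzymes and peptidases that work with them. They were chosen by symbol, with earlier results of these data known. The rule took every deposited feature whose symbol begins with TOMM or TIMM followed by a digit. It also took TIMMDC1, PAM16, GRPEL1, GRPEL2, CHCHD4, GFER, PMPCA and PMPCB. DNAJC19 was left out by the rule and is counted below with the partners of the matrix Hsp70. The rule found 33 members among 46846 features of the table, 25854 of which carried a symbol. Of the 33, 32 had a mean normalised read count of at least 10 over the 9 libraries and were tested. TOMM20L, a little-expressed relative of TOMM20, lay between 0 and 2.03 in all libraries and was not tested. The cells were MDA-MB-231, an established human line of triple-negative breast cancer, which lacks hormone receptors and HER2 amplification. Polyadenylated RNA was sequenced from 3 libraries of cells given DMSO, the solvent (time labelled 12 h), 3 of cells given 3.3 µM indisulam for 12 h and 3 of cells given 10 nM pladienolide B for 6 h. All groups are the same parental line with no engineered allele, and treatment began a day after seeding. Drug and exposure time differ together for pladienolide B, so their parts in a difference cannot be told apart.

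Indisulam is an aryl sulfonamide that brings the splicing factor RBM39 to an E3 ubiquitin ligase, and pladienolide B binds SF3B1, a core protein of the U2 snRNP that recognises the branch point of introns. Nearly all mitochondrial proteins are made in the cytosol and enter through the TOM pore, formed by TOMM40. TOMM20 and TOMM22 are receptors for proteins with a cleavable presequence, and TOMM70 receives carrier proteins together with their cytosolic chaperones. Presequence proteins pass on through TIM23 and are pulled into the matrix by an Hsp70 motor, where the PMPCA-PMPCB peptidase removes the presequence. Carriers are escorted by the small TIM chaperones to TIM22. Small cysteine-rich proteins of the intermembrane space are trapped there by the CHCHD4-GFER disulfide relay.

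The libraries held 59312100 to 83910831 reads, and 3 reads corresponded to 2.48 to 3.87 normalised read counts. The normalised counts of all features summed to 61016460 ± 574381 (SD, n = 3) with DMSO, 63349449 ± 409132 with indisulam and 84689853 ± 2607968 with pladienolide B, 1.39 times the DMSO sum. Setting all library totals equal moved the median log2 difference of all features by -0.47 for pladienolide B against DMSO, by -0.42 for pladienolide B against indisulam and by -0.054 for indisulam against DMSO. Pladienolide B differences are therefore given as deposited and again "at equal totals", that is, after each library was rescaled to the same sum. Of the line's markers, VIM averaged 140909 and CD44 60461 over the 9 libraries. ESR1 (0.635) and PGR (0.186) were near 0, and PTPRC, a leukocyte marker, averaged 10.8. EPCAM (1236) and ERBB2 (5587) were detected. In bulk RNA, fewer cells and less RNA per cell cannot be told apart. The labels do not say whether replicas were separate cultures, and the p-values speak for the variation among these 9 libraries alone.

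Some members are close copies of each other, which sets how far their values can be separated. TIMM23 and TIMM23B, both on chromosome 10, differed at 27 of 564 aligned coding bases (95.2% identity), and 6.33% of 75-base windows were the same in both. The coding sequences are 627 and 564 bases long, and TIMM23 bases set against gaps were left out. Differences lay scattered from TIMM23 base 25 to 405, then close together beside gaps from 517 to 603. Coding bases 9 to 68 of both genes, read from the GENCODE 29 transcripts (GRCh38), are shown because the 3 bases in capitals are what tells reads of these genes apart there. Counted from the first coding base, the differences from TIMM23 to TIMM23B are A25G, G41T and G68A.
TIMM23: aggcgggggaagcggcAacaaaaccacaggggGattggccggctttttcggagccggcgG
TIMM23B: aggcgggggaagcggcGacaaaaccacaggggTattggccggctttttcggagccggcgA

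The other paralog pairs shared no 75-base window, with coding identities of 58.6% for PMPCA and PMPCB to 70.5% for TOMM40 and TOMM40L. The 6 small TIM genes, of which TIMM9 and TIMM10 were lower and TIMM8B, TIMM10B and TIMM13 higher with pladienolide B as deposited, share a simple sequence feature. Each encodes a pair of Cys-X3-Cys motifs, the cysteines that form the disulfide bonds holding the helical hairpin of these chaperones. The coding stretch from the first to the last of these cysteines is given with the cysteine codons in capitals. It spans 72 bases with 14 codons between the motifs in TIMM8A, TIMM8B and TIMM13, 75 bases with 15 codons in TIMM9 and TIMM10B, and 78 bases with 16 codons in TIMM10.
TIMM8A: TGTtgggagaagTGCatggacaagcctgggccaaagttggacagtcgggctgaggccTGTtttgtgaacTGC
TIMM8B: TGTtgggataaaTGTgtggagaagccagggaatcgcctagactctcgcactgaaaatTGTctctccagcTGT
TIMM9: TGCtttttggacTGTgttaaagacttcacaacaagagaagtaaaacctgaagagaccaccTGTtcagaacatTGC
TIMM10: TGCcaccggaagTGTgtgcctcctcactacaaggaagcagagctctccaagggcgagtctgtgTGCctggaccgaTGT
TIMM10B: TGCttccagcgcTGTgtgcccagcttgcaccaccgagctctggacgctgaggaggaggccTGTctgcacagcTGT
TIMM13: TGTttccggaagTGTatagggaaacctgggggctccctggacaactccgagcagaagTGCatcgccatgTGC

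Of the 33 members, 30 had a RefSeq promoter window (GRCh38.p14), and the 250 bases before the start site were searched on both strands. The letters GCGCANGCG, a core of the NRF1 motif, occurred in 8 of 30 members (26.7%) against 7.02% of 27305 promoters. CCGGAAGT, a motif of ETS factors, also occurred in 8 of 30 (26.7%) against 3.64%. The Sp1 letters GGGGCGGGG occurred in 5 (16.7% against 15.4%), the YY1 letters AAGATGGCG in 1 (3.33% against 0.641%) and TATAAA in 0 (against 11.1%). Matches of different motifs overlapped in 0 of the 30 windows. The median GC content was 64% in members and 58% in all promoters. These matches describe the letters of the windows. The windows of 4 members are printed because these members stand at the ends of the pladienolide B response or, for TOMM20, because its window holds both motifs. Capitals mark the NRF1 and ETS matches. For GRPEL2, TOMM20 and TOMM70 the span listed in the deposited table begins upstream of the RefSeq start and covers part or all of the window.
GRPEL2 (chr5:149345249-149345498, plus strand): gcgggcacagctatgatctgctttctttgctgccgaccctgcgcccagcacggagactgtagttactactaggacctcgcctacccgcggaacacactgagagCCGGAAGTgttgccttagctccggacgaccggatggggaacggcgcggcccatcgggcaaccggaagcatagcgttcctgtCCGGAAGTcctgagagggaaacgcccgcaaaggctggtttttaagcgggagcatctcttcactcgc
TOMM20 (chr1:235128838-235129087, minus strand): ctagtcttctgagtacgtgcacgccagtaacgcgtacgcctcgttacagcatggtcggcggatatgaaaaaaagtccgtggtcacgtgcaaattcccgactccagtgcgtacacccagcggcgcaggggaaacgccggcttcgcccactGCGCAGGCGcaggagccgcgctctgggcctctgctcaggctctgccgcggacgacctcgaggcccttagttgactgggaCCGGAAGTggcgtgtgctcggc
TIMM9 (chr14:58427532-58427781, minus strand): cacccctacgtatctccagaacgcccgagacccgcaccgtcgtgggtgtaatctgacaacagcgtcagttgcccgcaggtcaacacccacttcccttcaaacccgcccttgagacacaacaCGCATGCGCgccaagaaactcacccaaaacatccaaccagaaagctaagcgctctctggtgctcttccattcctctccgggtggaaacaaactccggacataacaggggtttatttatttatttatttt
TOMM70 (chr3:100401090-100401339, minus strand): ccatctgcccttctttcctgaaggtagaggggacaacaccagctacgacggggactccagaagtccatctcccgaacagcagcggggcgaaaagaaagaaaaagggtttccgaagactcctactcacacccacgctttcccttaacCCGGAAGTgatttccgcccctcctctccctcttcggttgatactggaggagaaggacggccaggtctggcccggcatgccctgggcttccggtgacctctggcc

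Per kilobase of GENCODE 29 transcript, the DMSO levels of the members spanned from 37782 ± 1111 normalised read counts (SD, n = 3) for TOMM6 to 2.34 ± 0.600 for TOMM20L. The small subunits of the TOM pore stood at the top, with TOMM5 at 15467 ± 503 and TOMM7 at 9236 ± 708 per kb. The pore protein TOMM40 (7906 ± 499.6), the TIM23 channel subunit TIMM23 (6890.2 ± 145), the receptor TOMM20 (6230.2 ± 118) and the small TIM TIMM10 (5643 ± 188) followed. Neighbours in this order often lay within each other's spread: TIMM17A (5285 ± 106) and TIMM8B (5071 ± 217) did not differ beyond it, nor did TIMM44 (2475 ± 123) and TIMM17B (2466 ± 136). The receptor TOMM70 was far below TOMM20 per kb, at 535 ± 17.99. At the low end were TOMM40L (220.5 ± 13.02), CHCHD4 (136 ± 14.3) and GRPEL2 (65.6 ± 7.52). Exonic bases of TOMM6 (100%), PAM16 (83.1%) and TOMM5 (81.9%) also belong to other GENCODE genes on the same strand. Smaller shares of TIMM10B (14.6%) and TIMM23B (11.5%) do so too. How the counting split these reads bears on the levels of these members and was not tested.

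**Figure D1:**
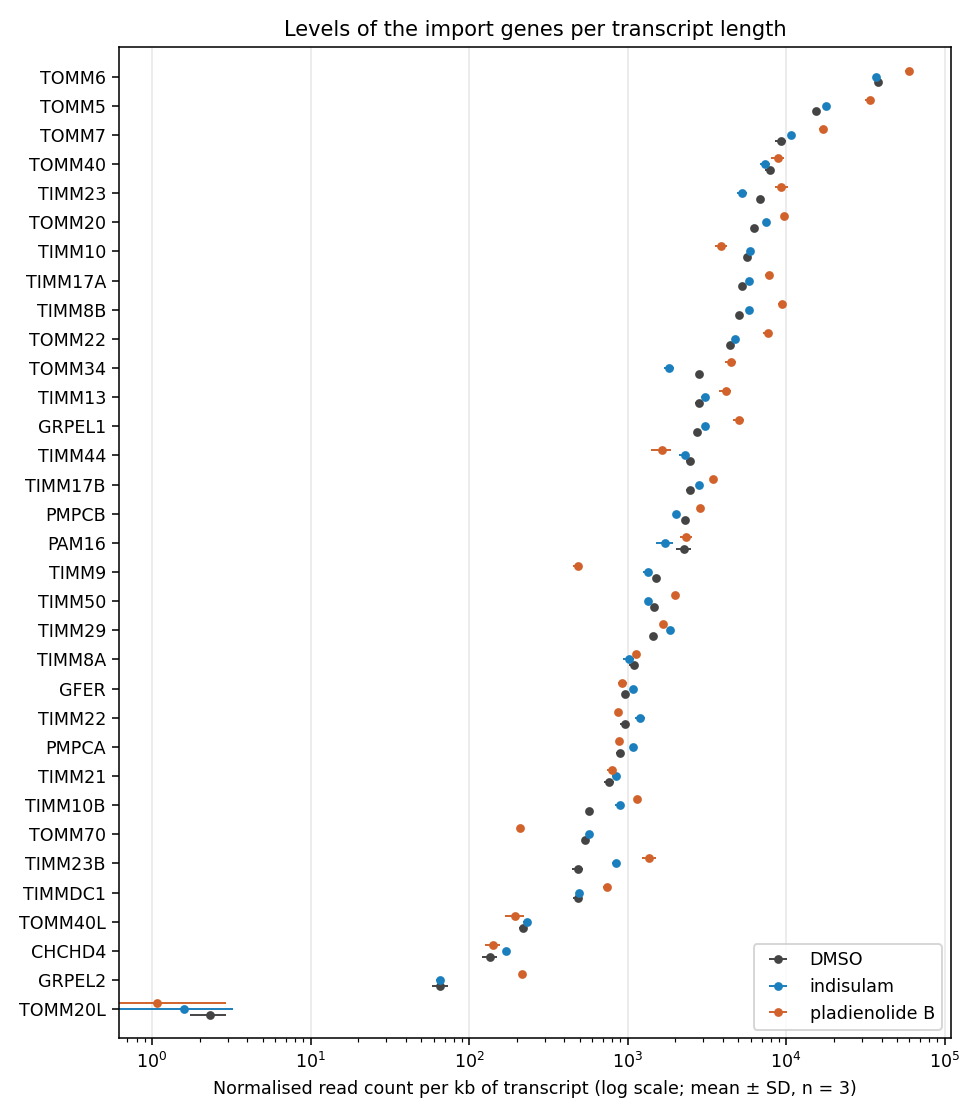
Normalised read count per kb of transcript (log axis) for the 33 members, ordered by the DMSO level; points are group means and bars the SD of 3 libraries. TOMM6 led at 37782 per kb with DMSO, and TOMM20L lay at 2.34.

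With indisulam, of 32 members tested, 10 rose, 4 fell and 18 did not pass the test (limma, adjusted p under 0.05). Over all 16846 features tested, 14.5% were called higher and 12.4% lower. The 10 members that rose were TIMM23B, TIMM10B, TIMM29, TIMM22, PMPCA, TOMM20, TOMM7, TOMM5, TIMM8B and TIMM17B. Those that fell were TOMM34, TIMM23, PAM16 and PMPCB. The log2 differences ran from -0.63 to 0.80, with a median of 0.11 against 0.047 over all features. No called member changed direction when totals were set equal, where 7 were higher and 5 lower against 10.2% and 15.1% of all features. TIMM50, not called as deposited, was called lower at equal totals (-0.18, adjusted p = 0.0410). The calls of TIMM8B, TOMM7 and TIMM17B did not hold at equal totals (adjusted p up to 0.106, 0.118 and 0.160 over the alternatives that lost them). The calls for PAM16 and PMPCB were lost without some single libraries, 3 for PAM16 (adjusted p 0.0680 to 0.0892) and 5 for PMPCB (0.0524 to 0.0939).

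With pladienolide B, 19 of the 32 members were higher than with DMSO as deposited, 4 were lower and 9 did not pass the test, while at equal totals 11 were higher and 15 lower. Over all features 34.3% were called higher and 35.5% lower as deposited, and 16.2% and 53.9% at equal totals. The median of the members was 0.44 as deposited against -0.011 over all features, and -0.032 at equal totals against -0.48. The members' median thus changed sign with the scaling. As deposited, 24 of 32 members lay above the median of all features. Rescaling moves all features by about the same amount, so this count could hardly change at equal totals and is no separate result there. The 4 that were lower, TIMM9, TOMM70, TIMM44 and TIMM10, were lower under both scalings. TIMM29, PMPCB, TIMM23 and TIMM50, higher as deposited, had differences below 0 at equal totals (-0.25, -0.17, -0.037 and -0.026), with TIMM29 and PMPCB called lower. TIMM13, TIMM17A, TIMM17B and TIMMDC1 stayed above 0 there without passing the test (adjusted p 0.264, 0.191, 0.752 and 0.102).

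The comparisons of each drug with DMSO share the DMSO libraries, so their calls are given side by side. TIMM23, TOMM34 and PMPCB were lower with indisulam and higher with pladienolide B as deposited. At equal totals PMPCB was called lower with pladienolide B (-0.17), TIMM23 was not called (-0.037) and TOMM34 was called higher (0.19). TIMM9, TOMM70, TIMM44 and TIMM10 were lower with pladienolide B and not called with indisulam. TIMM22 and PMPCA were called higher, and PAM16 lower, with indisulam and not called with pladienolide B as deposited, while all 3 were called lower with it at equal totals. TOMM40, TOMM40L, TIMM8A, TIMM21, CHCHD4 and GFER passed neither test as deposited.

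**Figure D2:**
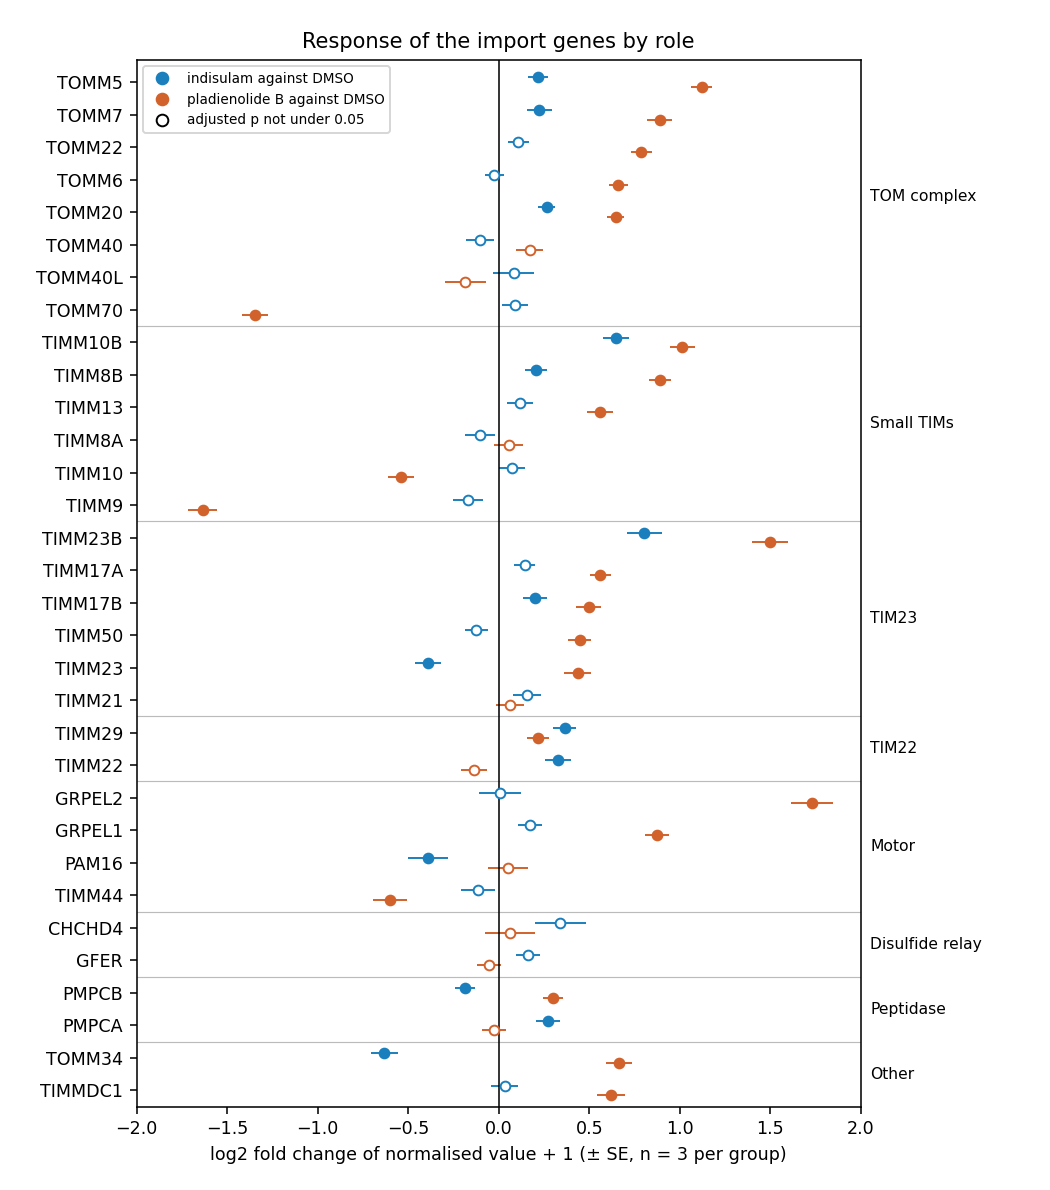
Log2 difference from DMSO (± SE) of each tested member by role, blue for indisulam and orange for pladienolide B as deposited, with open points for differences that did not pass the test. TIMM9 (-1.63) and TOMM70 (-1.35) lie at the left, GRPEL2 (1.73) and TIMM23B (1.50) at the right; at equal totals the orange points of TIMM29, PMPCB, TIMM23, TIMM50, TOMM40, TIMM21, CHCHD4, TIMM8A and PAM16 cross 0.

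By role, library values are given as normalised read counts and differences from DMSO as log2(value + 1) differences with their SE. Among the receptors of the TOM complex, TOMM20 and TOMM70 moved apart. TOMM20 (chr1:235109341-235128941, hg38) read 20686, 21135 and 21484 in the DMSO libraries, 24248, 26185 and 25616 with indisulam and 33117, 33580.1 and 32289 with pladienolide B. The groups did not overlap, with the DMSO libraries lowest. It was higher with indisulam by 0.26 ± 0.049 (SE; adjusted p = 0.00152) and with pladienolide B by 0.64 ± 0.049 (SE; adjusted p = 5.13e-08), with 0.17 at equal totals. TOMM70 (chr3:100363431-100401439) read 2378, 2274 and 2430.2 in the DMSO libraries, 2395, 2584 and 2563 with indisulam and 877, 948 and 959 with pladienolide B. Its 3 pladienolide B libraries all lay far below the others, while the DMSO and indisulam libraries overlapped. The indisulam difference was 0.091 ± 0.071 (SE; adjusted p = 0.378), and with pladienolide B TOMM70 fell, at -1.35 ± 0.071 (SE; adjusted p = 1.59e-09) and -1.82 at equal totals. TOMM22, the receptor that also anchors the complex, read 8927, 9105 and 9041 in the DMSO libraries, 9348, 9722 and 10114 with indisulam and 14430.2, 16450.2 and 15909.8 with pladienolide B. All pladienolide B libraries were above the rest, a difference of 0.79 ± 0.059 (SE; adjusted p = 4.30e-08) (0.31 at equal totals), and the indisulam libraries lay just above DMSO without passing the test, at 0.11 ± 0.059 (SE; adjusted p = 0.199).

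The pore protein was called with neither drug as deposited. TOMM40 read 12654, 13996 and 14262 in the DMSO libraries, 11699.6, 13372 and 13064 with indisulam and 13804, 16548 and 15752 with pladienolide B. The groups overlapped with DMSO in both comparisons, and the differences were -0.10 ± 0.076 (SE; adjusted p = 0.357) for indisulam and 0.17 ± 0.076 (SE; adjusted p = 0.0614) for pladienolide B, with -0.30 and a call as lower at equal totals. Its relative TOMM40L gave 0.082 and -0.19 for the drugs in the same order, neither called as deposited, and was called lower (-0.66) with pladienolide B at equal totals. Of the small subunits that stabilise the pore, TOMM5 and TOMM7 rose with both drugs, under both scalings with pladienolide B. TOMM5 (chr9:37588413-37592597) read 11288, 12028 and 11531 in the DMSO libraries, 13620.4, 13405 and 13458 with indisulam and 23397, 26979 and 25498 with pladienolide B, with no overlap between groups. It was higher by 0.22 ± 0.058 (SE; adjusted p = 0.0138) with indisulam, a call lost without DMSO replicate 1 (adjusted p = 0.0592), and by 1.12 ± 0.058 (SE; adjusted p = 1.34e-09) with pladienolide B (0.65 at equal totals). TOMM7 read 7813, 6962 and 6782 in the DMSO libraries, 8791, 7989 and 8349 with indisulam and 13607, 13904 and 12382 with pladienolide B. The pladienolide B libraries again stood clear of the rest, at 0.89 ± 0.068 (SE; adjusted p = 5.72e-08) (0.42 at equal totals), and indisulam gave 0.22 ± 0.068 (SE; adjusted p = 0.0283). TOMM6 showed -0.024 ± 0.052 (SE; adjusted p = 0.779) with indisulam and 0.66 ± 0.052 (SE; adjusted p = 7.29e-08) with pladienolide B (0.19 at equal totals). Of the 8 TOM members tested, 5 were higher and 1 lower with pladienolide B as deposited, against 5 and 3 at equal totals, and 3 were higher and 0 lower with indisulam. Of all features, 34.3% were called higher and 35.5% lower with pladienolide B (16.2% and 53.9% at equal totals), and 14.5% and 12.4% with indisulam.

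The small TIM chaperones, which ferry hydrophobic proteins across the intermembrane space as hexamers, split with pladienolide B. TIMM9 and TIMM10 form a hexamer together. TIMM9 (chr14:58408490-58427531) read 2083, 1941 and 2016 in the DMSO libraries, 1651, 1831 and 1889 with indisulam and 614, 636 and 695 with pladienolide B. The pladienolide B libraries were far below all others, a difference of -1.63 ± 0.082 (SE; adjusted p = 9.92e-10) and of -2.11 at equal totals. With indisulam its libraries lay below those of DMSO, yet the difference of -0.17 ± 0.082 (SE; adjusted p = 0.141) did not pass the test. TIMM10 read 3725, 3977 and 3811 in the DMSO libraries, 3819, 4095 and 4206 with indisulam and 2381, 2828 and 2729.6 with pladienolide B, where the pladienolide B libraries were lowest and the DMSO and indisulam libraries overlapped. It fell with pladienolide B, at -0.54 ± 0.074 (SE; adjusted p = 1.67e-05) and -1.01 at equal totals, and showed 0.073 ± 0.074 (SE; adjusted p = 0.505) with indisulam.

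TIMM10B (chr11:6481460-6484681), the small TIM that docks on TIM22, moved the other way. It read 1668, 1565 and 1618 in the DMSO libraries, 2458, 2411 and 2739 with indisulam and 3206, 3416 and 3179 with pladienolide B, the groups standing in the order DMSO, indisulam, pladienolide B with no overlap as deposited, while at equal totals pladienolide B was at -0.051 of indisulam. It rose by 0.65 ± 0.070 (SE; adjusted p = 3.09e-05) with indisulam and by 1.01 ± 0.070 (SE; adjusted p = 2.10e-08) with pladienolide B, where the difference at equal totals was 0.54. TIMM8B, a relative of TIMM8A, which forms hexamers with TIMM13, read 4247, 3899 and 4101 in the DMSO libraries, 4793, 4586 and 4720.0 with indisulam and 7105, 7812 and 7770.3 with pladienolide B. It was highest with pladienolide B, at 0.89 ± 0.060 (SE; adjusted p = 1.76e-08) (0.42 at equal totals), and gave 0.20 ± 0.060 (SE; adjusted p = 0.0239) with indisulam. TIMM13 was higher by 0.56 ± 0.072 (SE; adjusted p = 8.92e-06) with pladienolide B (0.086 at equal totals) and gave 0.12 with indisulam. TIMM8A itself gave -0.10 and 0.055 and was not called in either as deposited (-0.42 and lower with pladienolide B at equal totals). Counted over the 6 small TIMs, 3 were higher and 2 lower with pladienolide B as deposited, and 2 and 3 at equal totals. Indisulam gave 2 higher and 0 lower. The shares of all features were 34.3% and 35.5% with pladienolide B (16.2% and 53.9% at equal totals), and 14.5% and 12.4% with indisulam.

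**Figure D3:**
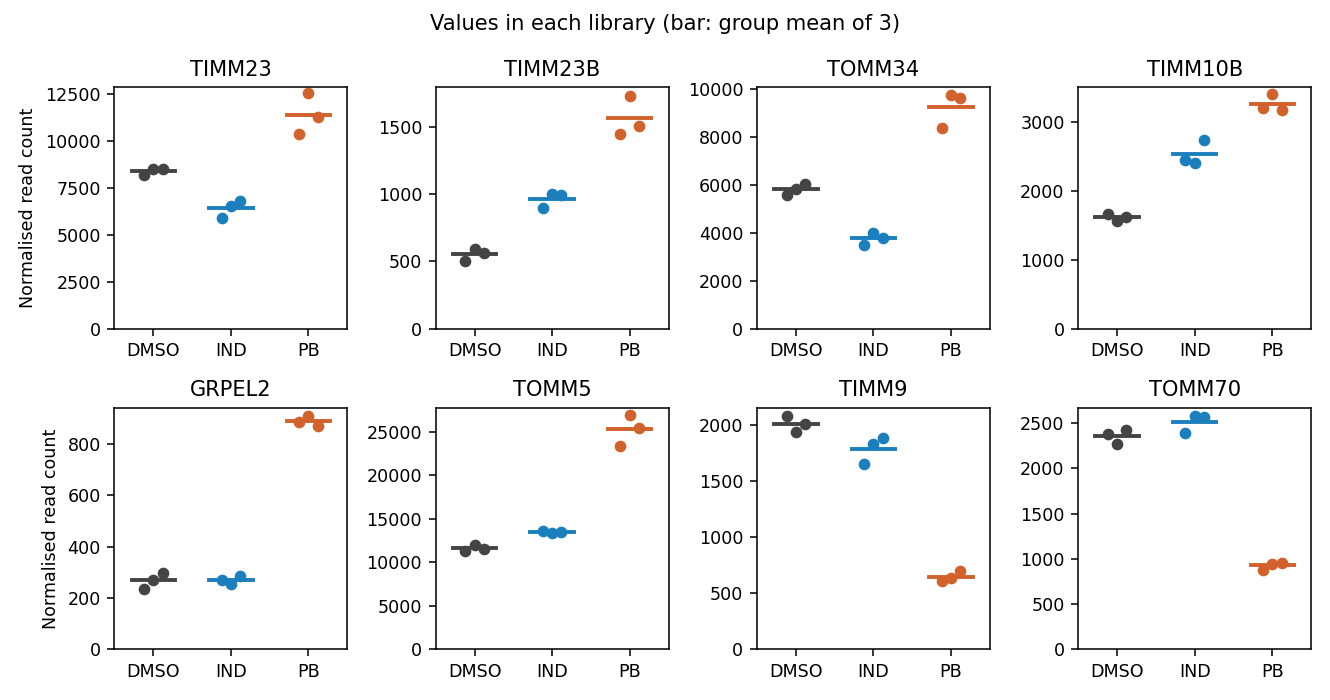
Normalised read counts as deposited in every library for 8 members (points, 3 per group; bars, group means; IND, indisulam; PB, pladienolide B). TIMM23 and TOMM34 are lowest with indisulam, TIMM9 and TOMM70 lowest with pladienolide B, and TIMM23B and TIMM10B stand in the order DMSO, IND, PB; at equal totals TIMM10B with PB lies at -0.051 of IND (log2), and TIMM23 with PB lies at -0.037 of DMSO (log2) at equal totals.

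In TIM23, the presequence translocase, TIMM23 and its copy TIMM23B answered indisulam in opposite directions. TIMM23 (chr10:45972447-46003742) read 8215, 8509.6 and 8535 in the DMSO libraries, 5918, 6569 and 6795 with indisulam and 10389, 12550.1 and 11310.5 with pladienolide B. The groups did not overlap, with indisulam lowest and pladienolide B highest. It fell with indisulam, at -0.39 ± 0.073 (SE; adjusted p = 0.00153), and was higher by 0.44 ± 0.073 (SE; adjusted p = 0.000111) with pladienolide B as deposited, but -0.037 at equal totals. TIMM23B (chr10:49942032-49974850) read 501, 591 and 567 in the DMSO libraries, 901, 999 and 995 with indisulam and 1451, 1735 and 1508 with pladienolide B. It stood in the order DMSO, indisulam, pladienolide B with no overlap, higher by 0.80 ± 0.098 (SE; adjusted p = 7.02e-05) and by 1.50 ± 0.098 (SE; adjusted p = 1.18e-08) (1.03 at equal totals).

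The other TIM23 subunits are the paired channel proteins TIMM17A and TIMM17B, the presequence receptor TIMM50 and the regulator TIMM21. TIMM17A read 8569.7, 8906 and 8827 in the DMSO libraries, 9315, 9594 and 10170.3 with indisulam and 12122, 13156 and 13516 with pladienolide B. Its libraries did not overlap between groups, but the indisulam difference of 0.14 ± 0.058 (SE; adjusted p = 0.0830) missed the threshold, and pladienolide B gave 0.56 ± 0.058 (SE; adjusted p = 1.09e-06) (0.087 at equal totals). TIMM17B read 2455, 2372 and 2201 in the DMSO libraries, 2697, 2619 and 2762 with indisulam and 3266, 3467 and 3174 with pladienolide B. As deposited it followed the same order, with 0.20 ± 0.067 (SE; adjusted p = 0.0389) for indisulam and 0.50 ± 0.067 (SE; adjusted p = 1.44e-05) for pladienolide B (0.023 at equal totals). TIMM50 read 3686, 3902 and 3709 in the DMSO libraries, 3299, 3458 and 3617 with indisulam and 4882, 5341 and 5174 with pladienolide B. The indisulam libraries were lowest, though the difference of -0.12 ± 0.062 (SE; adjusted p = 0.163) was not called as deposited. At equal totals it was called lower (-0.18, adjusted p = 0.0410). The pladienolide B libraries were highest at 0.45 ± 0.062 (SE; adjusted p = 2.02e-05) (-0.026 at equal totals). TIMM21 gave 0.16 and 0.063 and was not called as deposited (-0.41 and lower with pladienolide B at equal totals). Of the 6 members in TIM23, 5 were higher and 0 lower with pladienolide B as deposited, against 1 and 1 at equal totals. Indisulam gave 2 higher and 1 lower as deposited, against 1 and 2 at equal totals. Over all features, pladienolide B gave 34.3% and 35.5% (16.2% and 53.9% at equal totals) and indisulam 14.5% and 12.4% (10.2% and 15.1% at equal totals).

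Both TIM22 members, which insert carrier proteins into the inner membrane, rose with indisulam, where 14.5% of all features were called higher and 12.4% lower. With pladienolide B 1 was higher and 0 lower as deposited, against 34.3% and 35.5% of all features. At equal totals 0 were higher and 2 lower, against 16.2% and 53.9%. TIMM22, the channel subunit, read 2904, 2996 and 3290.1 in the DMSO libraries, 3558, 3848 and 4126 with indisulam and 2732, 2899 and 2723 with pladienolide B. The indisulam libraries were above all others, at 0.33 ± 0.073 (SE; adjusted p = 0.00505). The pladienolide B libraries lay below those of DMSO without passing the test, at -0.14 ± 0.073 (SE; adjusted p = 0.112), while at equal totals TIMM22 was called lower (-0.61). TIMM29, a metazoan TIM22 subunit, read 2138, 2042 and 1999 in the DMSO libraries, 2699, 2613 and 2635 with indisulam and 2387, 2392 and 2405 with pladienolide B. It was highest with indisulam, at 0.36 ± 0.061 (SE; adjusted p = 0.000783), and with pladienolide B the difference was 0.22 ± 0.061 (SE; adjusted p = 0.00588) as deposited, not called with TMM scaling or edgeR (adjusted p 0.0621 to 0.0683) and -0.25 at equal totals.

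The import motor held the member with the strongest pladienolide B rise. GRPEL1 and GRPEL2 are nucleotide exchange factors of the matrix Hsp70. GRPEL2 (chr5:149345493-149354583) read 236, 271 and 298 in the DMSO libraries, 269, 253 and 284 with indisulam and 887, 907 and 871 with pladienolide B. DMSO and indisulam overlapped and the pladienolide B libraries were all higher, with a group mean 3.31 times that of DMSO. The differences were 0.0078 ± 0.11 (SE; adjusted p = 0.969) with indisulam and 1.73 ± 0.11 (SE; adjusted p = 1.35e-08) with pladienolide B (1.26 at equal totals). GRPEL1, the more abundant of the pair, read 7589, 7377 and 7843 in the DMSO libraries, 8128, 8571 and 9030.3 with indisulam and 12704, 14954 and 14186 with pladienolide B. It was higher with pladienolide B by 0.87 ± 0.067 (SE; adjusted p = 5.20e-08) (0.40 at equal totals), and indisulam gave 0.17 ± 0.067 (SE; adjusted p = 0.0712), which was not called although the libraries did not overlap.

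TIMM44, which tethers the Hsp70 to TIM23, read 4848, 5232 and 5329 in the DMSO libraries, 4373, 5019 and 4844 with indisulam and 2914, 3406 and 3912 with pladienolide B. The pladienolide B libraries were the lowest and the other groups overlapped. It fell with pladienolide B, at -0.60 ± 0.094 (SE; adjusted p = 6.11e-05) and -1.07 at equal totals, and gave -0.12 ± 0.094 (SE; adjusted p = 0.400) with indisulam. PAM16, the J-like regulator of the motor, read 1184, 1345 and 1455 in the DMSO libraries, 875, 1074 and 1097 with indisulam and 1231, 1472 and 1424 with pladienolide B. Its indisulam libraries were lowest, at -0.39 ± 0.11 (SE; adjusted p = 0.0189), whereas the pladienolide B libraries overlapped those of DMSO at 0.052 ± 0.11 (SE; adjusted p = 0.690) (-0.42 and called lower at equal totals). Of the 4 motor members, pladienolide B gave 2 higher and 1 lower as deposited and 2 and 2 at equal totals, and indisulam gave 0 and 1. The shares over all features were 34.3% and 35.5%, 16.2% and 53.9%, and 14.5% and 12.4%, in the same order.

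In the disulfide relay neither member was called against DMSO as deposited. CHCHD4, the oxidoreductase that traps incoming cysteine-rich proteins, read 244, 207 and 202 in the DMSO libraries, 286, 276 and 263 with indisulam and 199.7, 250.2 and 232 with pladienolide B. The indisulam libraries were above DMSO, but at 0.34 ± 0.14 (SE; adjusted p = 0.0860) the difference did not pass. GFER, the sulfhydryl oxidase that reoxidises CHCHD4, read 2214, 2329 and 2237 in the DMSO libraries, 2456, 2561 and 2571 with indisulam and 2028, 2278 and 2229.9 with pladienolide B. Its indisulam libraries were also the highest, at 0.16 ± 0.067 (SE; adjusted p = 0.0920), again not called. With pladienolide B the differences were 0.062 for CHCHD4 and -0.054 for GFER. At equal totals both were called lower (-0.41 and -0.53), as were 53.9% of all features.

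The subunits of the matrix processing peptidase moved in opposite directions with indisulam. PMPCA, the subunit that recognises presequences, read 1914, 1863 and 2056 in the DMSO libraries, 2297, 2325 and 2408 with indisulam and 1908, 1923 and 1886 with pladienolide B. Only the indisulam libraries stood apart, higher by 0.27 ± 0.066 (SE; adjusted p = 0.00843), and pladienolide B gave -0.027 ± 0.066 (SE; adjusted p = 0.726) (-0.50 and called lower at equal totals). PMPCB, the catalytic subunit, read 5869.5, 5713 and 5574 in the DMSO libraries, 4905, 5122 and 5051 with indisulam and 7363, 7001 and 6789 with pladienolide B. It was lowest with indisulam, by -0.19 ± 0.056 (SE; adjusted p = 0.0246), and highest with pladienolide B as deposited, by 0.30 ± 0.056 (SE; adjusted p = 0.000252), which became -0.17 at equal totals. TOMM34, a cytosolic cochaperone of Hsp70 and Hsp90 for precursor proteins, had the largest fall of the members with indisulam. TOMM34 (chr20:44942130-44960425) read 5596, 5838 and 6054 in the DMSO libraries, 3505, 4011 and 3784 with indisulam and 8381, 9762 and 9618 with pladienolide B, with indisulam lowest, pladienolide B highest and no overlap. It fell with indisulam, at -0.63 ± 0.072 (SE; adjusted p = 4.70e-05), and was higher by 0.66 ± 0.072 (SE; adjusted p = 1.83e-06) with pladienolide B (0.19 at equal totals). TIMMDC1, an assembly factor of respiratory complex I named for its TIM-like domain, gave 0.032 with indisulam and 0.62 ± 0.077 (SE; adjusted p = 6.51e-06) with pladienolide B (0.15 at equal totals).

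**Figure D4:**
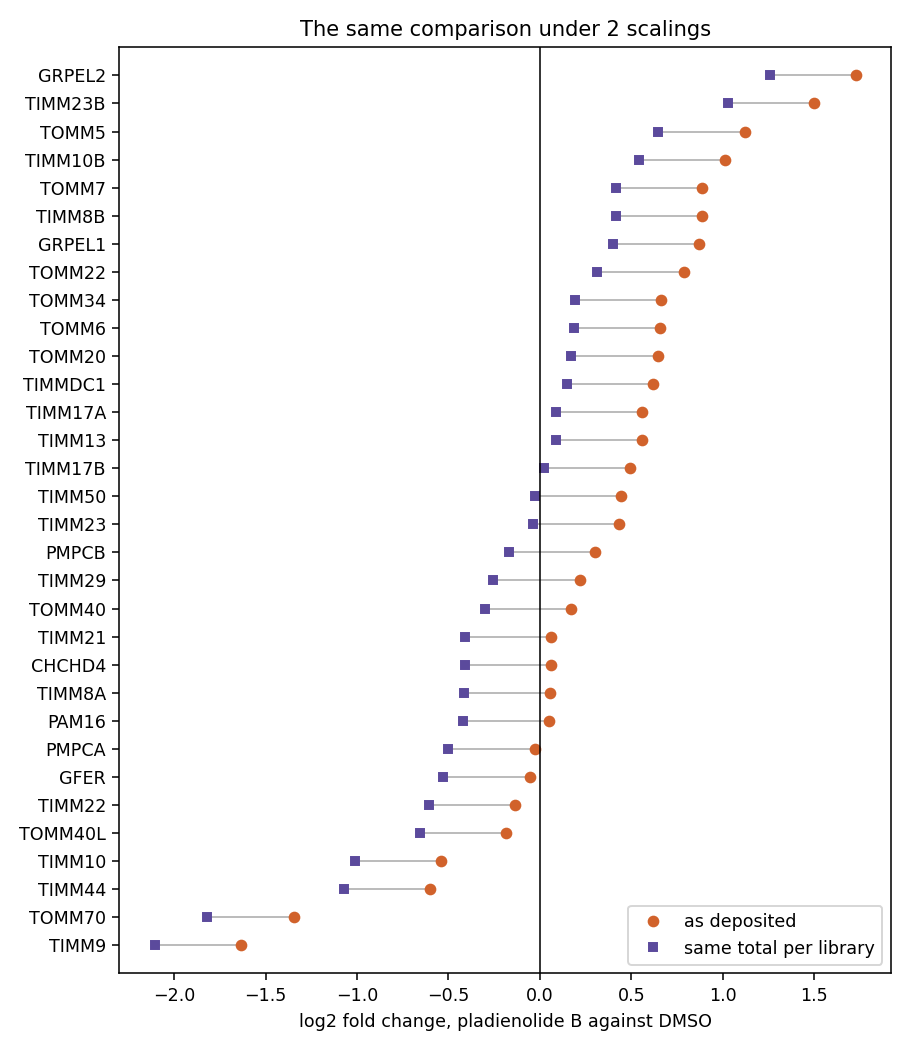
Log2 difference of pladienolide B from DMSO for each tested member as deposited (circles) and with equal library totals (squares). Every member shifts left by about the same amount; TIMM9, TOMM70, TIMM44 and TIMM10 are below 0 and the 15 members from GRPEL2 to TIMM17B above 0 under either scaling, and TIMM50, TIMM23, PMPCB, TIMM29, TOMM40, TIMM21, CHCHD4, TIMM8A and PAM16 change sides.

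Between the drugs, 20 members were higher with pladienolide B than with indisulam as deposited, 9 were lower and 3 did not pass the test, against 34.7% and 35.6% of all features. At equal totals 11 were higher and 12 lower, against 17.9% and 50.4% of all features. The median went from 0.40 to -0.020 and that of all features from 0.010 to -0.40. As deposited, 21 of 32 members lay above the median of all features, a count that rescaling could hardly change. GRPEL2 (1.72 ± 0.11 (SE; adjusted p = 1.51e-08)) and TOMM34 (1.30 ± 0.072 (SE; adjusted p = 3.02e-09)) led the higher side, with 1.30 and 0.88 at equal totals. TOMM5 (0.90), TIMM23 (0.83) and GRPEL1 (0.70) followed, with 0.49, 0.41 and 0.28 at equal totals. The lower side was led by TIMM9 (-1.46 ± 0.082 (SE; adjusted p = 2.97e-09)) and TOMM70 (-1.44 ± 0.071 (SE; adjusted p = 9.08e-10)), then TIMM10 (-0.61), TIMM44 (-0.48) and TIMM22 (-0.46), all lower at equal totals too. The differences of TOMM20, TIMM17A, TIMM17B, TIMM10B, TOMM40 and TIMM8A, the last not called as deposited, changed sign with the scaling, from above to below 0. The calls for TIMM29 (-0.15 ± 0.061 (SE; adjusted p = 0.0474)) and TOMM40L (-0.27 ± 0.11 (SE; adjusted p = 0.0488)) were lost in 11 alternatives each, among them leaving out any library of DMSO or indisulam.

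Ratios within a library do not depend on its scaling, so the paralog pairs were also compared that way. TIMM23B made up 5.75%, 6.49% and 6.22% of the summed TIMM23 and TIMM23B counts in the DMSO libraries, 13.2%, 13.2% and 12.8% with indisulam and 12.3%, 12.1% and 11.8% with pladienolide B. The groups did not overlap, and the mean shares were 6.16 ± 0.377% (SD, n = 3), 13.1 ± 0.252% and 12.1 ± 0.256%. The log2 ratio of TIMM23B to TIMM23 rose by 1.20 with indisulam and by 1.06 with pladienolide B (exact permutation test, two-sided p = 0.1, the smallest that 3 against 3 libraries allow, and 0.125 after Benjamini-Hochberg adjustment over 15 such tests). TIMM8B gained on TIMM8A by 0.31 and 0.83. GRPEL2 made up 3.02%, 3.55% and 3.66% of the GRPEL pair with DMSO and 6.53%, 5.72% and 5.79% with pladienolide B, a change of 0.86 in the log2 ratio, while with indisulam the values overlapped (exact permutation p = 0.3). PMPCA gained on PMPCB by 0.46 with indisulam and changed by -0.33 with pladienolide B. For TIMM17A against TIMM17B the changes were -0.058 and 0.064, with overlapping libraries (exact permutation p = 0.4 and 0.5).

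Several members lie on top of other genes, and the strand setting of the counting is not given in the sources used here. TIMM23B lies wholly inside the listed span of PARG, a poly(ADP-ribose) glycohydrolase, whose mean count was similar (1094 against 1027 over the 9 libraries). PARG gave 0.33 with indisulam (adjusted p = 0.0249) and -1.24 with pladienolide B (adjusted p = 7.84e-08), the opposite sign of TIMM23B with the latter. An unnamed feature overlapping TIMM23B along 6162 bases gave 1.83 and 1.82. TIMM9 shares 147 bases with KIAA0586, which gave -0.35 (not called) and -1.12 (adjusted p = 7.45e-06), the same signs as TIMM9. CHCHD4 lies wholly inside SLC6A6, which was more abundant (918 against 240) and gave -0.65 and -0.82, unlike CHCHD4. TIMM17B overlaps PQBP1 by 1320 bases, and PQBP1 (mean 6548) was called in neither comparison. TIMM8B overlaps NKAPD1 by 334 bases. NKAPD1 (mean 4429) gave 0.072 (not called) and -0.62 (adjusted p = 4.95e-07), the opposite sign of TIMM8B with pladienolide B. TOMM34 overlaps PABPC1L (mean 198) by 17027 bases, and PABPC1L gave -0.61 (adjusted p = 0.0361) and -0.48 (adjusted p = 0.0451). PMPCB overlaps DNAJC2 (mean 561) by 17223 bases. DNAJC2 gave 0.76 (adjusted p = 0.00770) and -0.72 (adjusted p = 0.00301), opposite in sign to PMPCB as deposited. An unnamed feature overlapping PAM16 along 1911 bases gave 1.13 (adjusted p = 0.00853) and 0.11 (not called). The part of these overlaps in the members' values was not tested.

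The wider pathway was read from lists of 52 further genes, 50 of which were found and 49 tested. With indisulam 4 were higher and 11 lower (median -0.028), and at equal totals 0 and 15, against 14.5% and 12.4% of all features as deposited and 10.2% and 15.1% at equal totals. With pladienolide B 29 were higher and 9 lower (median 0.33), and at equal totals 11 and 21 (median -0.14), against 34.3% and 35.5%, and 16.2% and 53.9%, of all features. Among the matrix Hsp70 and its partners, 1 of 7 rose and 1 fell with indisulam: the J protein DNAJC15 at 0.19 (adjusted p = 0.0404) and the Hsp70 itself, HSPA9, at -0.43 (adjusted p = 0.000403). The DNAJC15 call was lost at equal totals (0.14, adjusted p = 0.159). With pladienolide B 4 of these 7 were higher and 1 lower (3 and 3 at equal totals), led by DNAJC15 at 0.79 (0.32 at equal totals) and by HSCB at -0.49. Of 6 genes for sorting and assembly of outer membrane proteins, MTX2 was lower with indisulam (-0.50) and none was higher. With pladienolide B 3 of them were higher as deposited and 0 at equal totals, MTCH1 at 0.52 and 0.043, and MTX3 was lower (-1.58).

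For the short lists that follow, the shares of all features called higher and lower were 14.5% and 12.4% with indisulam. With pladienolide B they were 34.3% and 35.5% as deposited, and 16.2% and 53.9% at equal totals. Of 9 tested carriers that use TIM22, 4 fell with indisulam, most in SLC25A13 (-0.67, adjusted p = 8.46e-05), and 0 rose. With pladienolide B 5 were higher and 2 lower (2 and 3 at equal totals), from the ADP/ATP carrier SLC25A5 (0.81) to the aspartate-glutamate carrier SLC25A12 (-1.03). SLC25A6 was listed at 0 in all libraries and was not tested. How reads were counted is not given, so this 0 need not mean absent RNA. Of 11 cysteine-rich clients of the relay, 10 were higher and 0 lower with pladienolide B (5 and 2 at equal totals), led by CHCHD2 at 0.94 (0.47 at equal totals). With indisulam only NDUFA8 (0.19) and COX19 (-0.26) were called as deposited, the former not at equal totals (adjusted p = 0.0674). Among 7 quality control proteases, 3 were higher and 3 lower with pladienolide B (0 and 6 at equal totals), from CLPP (0.36, and -0.11 at equal totals) to CLPX (-1.76). With indisulam 1 of the proteases was higher and 2 were lower (0 and 3 at equal totals). YME1L1 was higher as deposited only (0.16, and 0.11 with adjusted p = 0.235 at equal totals), and LONP1 fell most (-0.35). The 6 insertase and later peptidase genes gave 1 higher and 2 lower with indisulam, XPNPEP3 at 0.42 (adjusted p = 0.0531 at equal totals) and MIPEP at -0.84. With pladienolide B they gave 2 and 1 (0 and 3 at equal totals), PITRM1 at 0.56 (0.084 at equal totals) and XPNPEP3 at -0.57. Of ROMO1, AGK and AIFM1, partners of TIM23, TIM22 and the relay, 0 were called with indisulam. With pladienolide B 2 of them were higher and 1 lower (1 and 1 at equal totals). ROMO1 was higher at 0.96 (0.49 at equal totals) and AGK lower at -0.33. AIFM1 was higher at 0.33 as deposited and not called at equal totals (-0.15).

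Import genes are short and have few introns. Their GENCODE 29 transcripts had a median of 4 introns, a median span of 10349 bases and a median length of 2007 bases, against 8 introns, 28149 bases and 3175 bases in 12269 protein-coding genes tested. Across the 32 members, Spearman's rho between intron number and the log2 difference was -0.37 for indisulam and -0.33 for pladienolide B, against -0.24 and -0.22 across the 12269 genes. For transcript length and span, rho with indisulam was 0.066 and -0.25 in members, and -0.012 and -0.078 across the 12269 genes. With pladienolide B it was -0.097 and -0.16 in members, and -0.24 and -0.24 across the 12269 genes. Introns, length and span were not separated. These are descriptions over genes of the same libraries, which are not independent replicates. The small TOM genes TOMM5 (1 intron) and TOMM7 (2 introns) were on the higher side and TOMM70 (11 introns) and TIMM44 (12 introns) on the lower side with pladienolide B. TIMM10, with 2 introns, and TIMM9, with 5, were lower as well, and PMPCB, with 12, was higher as deposited (-0.17 at equal totals).

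**Figure D5:**
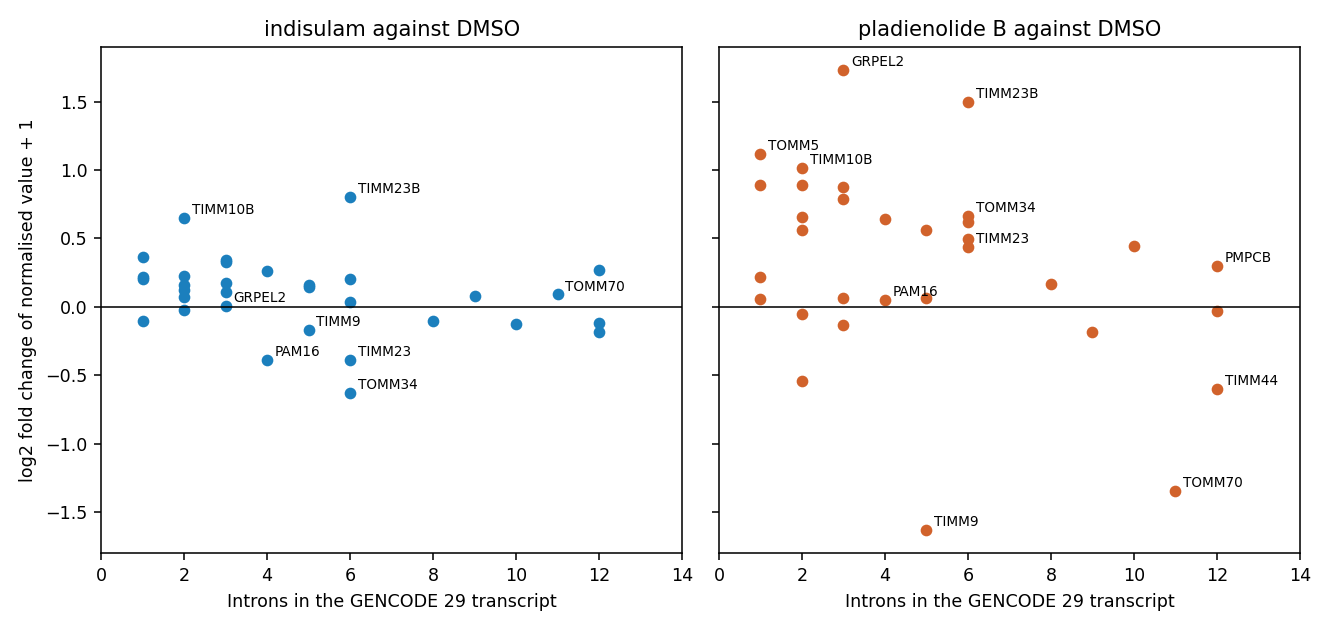
Number of introns in each member's GENCODE 29 transcript against its log2 difference from DMSO as deposited, for indisulam (left) and pladienolide B (right), 32 members each. TOMM70 and TIMM44 lie low at 11 and 12 introns with pladienolide B, while TIMM9 at 5 introns is the lowest point; equal totals would move all points of the right panel down by about the same amount.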

How the data were processed

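RNA-seq libraries (9) were made with a kit for stranded mRNA, of the fr-secondstrand type per the labels. STAR 2.7.5a, SAMtools, Picard, FastQC, DESeq2 and the build hg38 appear in the submitters' processing notes. How reads were counted, and with which strand setting and annotation, is not given in the sources used here. Deposited values were a signal: per feature and library, a read count that the authors divided by 1 size factor per library with DESeq2, per the labels' tools and the values. Multiplying back gave whole reads for 100% of values (tolerance 0.01).

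Values were tested as log2(value + 1) with limma 3.58.1 (R 4.3.3): a mean per group, 9 libraries in 1 fit, a variance trend, features with a mean of at least 10, two-sided tests and adjustment by Benjamini-Hochberg over 16846 features (threshold 0.05). The log2 scale with this pseudocount understates changes of low genes. Alternatives were TMM scaling, equal totals, edgeR 4.0.16, DESeq2 1.42.0, other filters, a pseudocount of 10, a replicate block, only the groups compared, and leaving out each library. Ratios of paralogs were compared with exact permutation tests over libraries. Introns, transcript lengths and coding sequences came from GENCODE 29, promoters from RefSeq. GRPEL1, TIMM8B and TOMM5 had no promoter entry. Members and lists were chosen with earlier results of these data known. Library values are printed for the 5 called members that rose most and the 5 that fell most in each comparison and for 16 core members, other members by difference and counts. For each further list, the called gene with the largest rise and the largest fall is named. No pair of libraries of a group agreed within sampling noise (lowest chi-square per gene 8.68).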

Additional observations from a re-analysis of the deposited data

How the results depend on the processing

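Pladienolide B results depended on the scaling. At equal library totals the median over members was -0.032 against DMSO and -0.020 against indisulam. Against DMSO 11 members were higher and 15 lower, beside 16.2% and 53.9% of all features. Against indisulam 11 were higher and 12 lower, beside 17.9% and 50.4% of all features. Of differences called as deposited, TIMM23 (-0.037), TIMM29 (-0.25), TIMM50 (-0.026) and PMPCB (-0.17) changed sign against DMSO, and TIMM17A (-0.0031), TOMM20 (-0.038), TIMM10B (-0.051), TOMM40 (-0.15) and TIMM17B (-0.12) against indisulam. Of differences not called as deposited, TOMM40 (-0.30), TIMM21 (-0.41), CHCHD4 (-0.41), TIMM8A (-0.42) and PAM16 (-0.42) against DMSO, and TIMM8A (-0.26) against indisulam, changed sign and were called lower. With TMM scaling and edgeR, TIMM21 (-0.018 and -0.019), CHCHD4 (-0.019 and -0.022), TIMM8A (-0.026 and -0.027) and PAM16 (-0.030 and -0.031) lay just below 0 against DMSO without a call. With indisulam, TIMMDC1 and GRPEL2, never called, changed sign with TMM scaling (-0.011 and -0.035), equal totals (-0.022 and -0.046) and edgeR (-0.013 and -0.038). Leaving out single libraries moved 4 uncalled differences across 0: GRPEL2 with indisulam (-0.081 to 0.085), and PAM16 (-0.028 to 0.13), CHCHD4 (-0.010 to 0.15) and PMPCA (-0.058 to 0.014) with pladienolide B.

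Leaving out single libraries gave medians of 0.10 to 0.149, 7 to 11 higher and 2 to 4 lower for indisulam, the 2 coming without DMSO replicate 2 or indisulam replicate 1. It gave 0.391 to 0.491, 19 to 20 and 4 to 5 for pladienolide B, and 0.347 to 0.437, 20 to 20 and 7 to 8 between the drugs. With the replicate block, indisulam gave 14 higher and 4 lower, pladienolide B 20 and 5, and the drugs against each other 21 and 9. The 4 members gained as higher with indisulam were TIMM17A (adjusted p = 0.0152), GRPEL1 (0.0152), GFER (0.0322) and TIMM21 (0.0418). TIMM22 (lower, 0.0454) and TOMM40 (higher, 0.00151) were gained with pladienolide B, and TIMM8A (higher, 0.0296) between the drugs. To look for pairing, each feature's group mean was subtracted from its log2 values. What remained correlated at 0.0027 to 0.128 between libraries with the same number, over all 9 pairs, and 3 exceeded 0.1. The labels name no shared batch, so the numbers were not taken as pairs, although in 16 of 18 cases the best match was the library with the same number, a hint from the data and not from the design. TMM scaling gave 7 and 4 with indisulam and 18 and 5 with pladienolide B, and edgeR 7 and 4, and 18 and 6. DESeq2 gave 10 and 4, and 19 and 4. Shares of all features called were computed only as deposited and at equal totals, so counts under the other alternatives stand without them. TOMM20L, at 0 to 2.03 with 3 reads worth 2.48 to 3.87, was not detectable at this depth.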
